A study of Homo sapiens with 3 samples.

Results

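The transcriptome described here is that of K562 cells carrying an empty retroviral vector, the control of a series on the transcription factor EVI1. It is 1 of 3 RNA-seq libraries in the series, taken by its label pMYs-IG_empty vector, and it is described across all 26334 genes of its deposited table. The other libraries, from cells with vectors for EVI1-WT or EVI1+18, were not compared with it. K562 is an established human line from a chronic myelogenous leukaemia. The cells were infected with virus made in GP2-293 packaging cells, GFP-positive cells were sorted and grown on in RPMI-1640 medium with serum, and the vector is stably expressed from a retroviral construct. There is 1 library and no replicate, so the spread between cultures is unknown, nothing was tested, and each interval below describes counting error alone.

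K562 cells resemble early erythroid cells, with genes of the fetal and embryonic rather than the adult beta-globin type, and they carry the BCR-ABL1 fusion kinase that drives chronic myelogenous leukaemia. In erythroid cells GATA1, TAL1, LMO2 and LDB1 form a DNA-bound complex that, with KLF1 and NFE2, activates globin, membrane and heme synthesis genes. Transferrin receptor brings in the iron that heme needs. Myeloid and lymphoid programmes are run by other factors, among them SPI1 and the CEBP family for myeloid cells and PAX5 for B cells.

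Levels are in TPM, a length-corrected share of all transcripts in the library, which divides each count by the length of the transcript and can therefore be compared between genes. The library held 17794423 expected counts, and 14454 genes had at least 1. A gene is called on at 1 TPM or more. For a gene of the median effective length among those on, 2534 bases, 1 TPM corresponds to 27.6 counts. By that rule 11173 genes were on, which is 42.4% of all genes in the table, and 1618 (6.14%) reached 100 TPM. A further 3283 genes lay above 0 and under 1 TPM, and 11872 (45.1%) had 0 counts. An effective length of 0 was listed for 2307 genes, which cannot receive a TPM. Of the 18949 genes that matched a protein-coding gene of RefSeq, 54.7% were on, 8.38% reached 100 TPM and 32.0% had 0 counts; these shares are the background for the lists below. A count of 0 allows up to 3 counts, and the level that 3 counts would give is printed beside genes at 0 that matter. The 4 markers chosen for these cells were all high, with HBG2 at 26920.05 TPM, HBG1 at 15935 TPM, TFRC at 430.3 TPM and GATA1 at 287 TPM.

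Globins and the protein synthesis machinery took the top of the list. The 20 most abundant genes held 15.9% of all TPM and comprised 12 ribosomal protein genes, 4 globins, the ribosomal protein pseudogene RPL13AP5, the elongation factor gene EEF1A1, the ferritin light chain gene FTL and GAPDH. The first was HBG2, with 93049 counts. RPS18 followed the gamma-globin pair at 12738 TPM and RPS27 at 11525 TPM. RPS27 is short, with an effective length of 88.8 bases, so its TPM leans on the length correction: it had 11141 counts against 38350 for RPS18. EEF1A1, which brings aminoacyl-tRNA to the ribosome, had the most counts of any gene, 286259, and stood at 8096 TPM. FTL, which stores iron with its heavy chain partner, was at 7022 TPM, and the glycolytic enzyme gene GAPDH at 4872 TPM. RPL13AP5 was listed at 6712 TPM and its parent gene RPL13A at 752.1 TPM. Neither expected count was a whole number while their sum was, and the summed level of 7464 TPM does not depend on how reads were divided within the pair, save through the length term. Just outside the 20 stood the chaperone gene HSP90AB1 at 4342 TPM. The order leans on the length term: ranked by counts alone, 8 of the 20 stayed among the first 20.

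The upper ranks thin out slowly. The 100 most abundant genes held 37.2% of all TPM, 269 genes held 50% and 3805 held 90%, and 133 genes stood at 1000 TPM or more. Genes that were on had a median of 21 TPM, with the middle 50% between 7.43 and 55.8 TPM. Ribosomal protein genes of the cytosol were the largest class, with 83 of 87 on, a median of 2478 TPM and 23.0% of all TPM. The 10 globin chain genes held 5.86%.

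Fetal and embryonic globins were high and adult beta-globin was nearly absent. HBG2 and HBG1 code for the gamma chains of fetal haemoglobin, and since their sequences are close to identical and their counts were not whole, their sum of 42855 TPM (95% interval 42637 to 43074) is firmer than the ratio of 1.69 between them. HBE1, the embryonic beta-like chain, was at 5484 TPM, so that the gamma pair exceeded it 7.81-fold (7.72 to 7.91). With annotated in place of effective length this ratio was 6.31, outside that interval. The intervals do not cover the choice of length, and 10 of the 25 ratios compared left theirs in this way. HBD, the minor adult chain, was at 32.0 TPM on 177 counts, and HBB, the major adult chain, at 3.06 TPM on 12 counts. The gamma pair exceeded HBD 1340-fold (1157 to 1562) and HBB 14005-fold, with a wide interval of 8017 to 27104 because HBB rests on 12 counts. The order of the beta-like genes was therefore gamma, epsilon, delta and beta, and no neighbouring intervals overlapped.

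Among the alpha-like genes both adult and embryonic members were on. HBA1 stood at 5375 TPM and HBA2 at 2109 TPM. Their expected counts too were not whole but added up to a whole number, and the summed level was 7485 TPM (7397 to 7573). HBZ, the embryonic zeta chain, was at 2673 TPM, 2.80-fold below that sum (2.74 to 2.87). HBQ1 was at 37.0 TPM. HBM had 0 counts, where 3 counts would have given 1.13 TPM, so HBM cannot be placed firmly under 1 TPM. Added up, beta-like chains reached 48374 TPM and alpha-like chains 10194 TPM, a ratio of 4.75 (4.69 to 4.80). AHSP, a chaperone that binds free alpha chains, was at 8.78 TPM on 23 counts. The globin list thus had 10 of 11 members on, 6 of them at 100 TPM or more.

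Genes of the red cell membrane were on almost throughout, at levels far below the globins. Of 25 members 24 reached 1 TPM, against 54.7% of protein-coding genes, and the median was 49.4 TPM. RHAG, the glycoprotein that carries the Rh complex, led at 652 TPM (640.2 to 663.8). Next came the glycophorin gene GYPC at 223.8 TPM and EPB41, which ties spectrin to actin, at 165.4 TPM. GYPB was at 137.8 TPM and GYPE at 75.7 TPM; glycophorin genes of this group resemble each other, so these levels are uncertain. The spectrin gene SPTB stood at 58.5 TPM and its anchor ANK1 at 88.0 TPM. At the low end of the list SLC4A1, the anion exchanger band 3, was at 2.74 TPM, EPB42 at 1.56 TPM and TMCC2, the 1 member under the threshold, at 0.91 TPM. RHD and RHCE, which are close in sequence, came to 18.6 TPM together.

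All 12 heme synthesis genes were on, against 54.7% of protein-coding genes. They ranged from 11.3 to 584.9 TPM with a median of 36.5 TPM. UROD, which acts in the middle of the pathway, was highest at 584.9 TPM. ALAS2, the erythroid form of the first enzyme, was at 37.3 TPM and the general form ALAS1 at 35.8 TPM, a ratio of 1.04 whose interval of 0.941 to 1.16 includes 1. FECH, which inserts the iron, was at 30.8 TPM, and ABCB10, a transporter of the mitochondrial membrane, at 62.3 TPM. ALAD was lowest, at 11.3 TPM.

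Of 15 iron genes 12 were on and 4 reached 100 TPM, against 54.7% and 8.38% of protein-coding genes. The median over the list was 40.03 TPM. FTL exceeded the heavy chain gene FTH1, at 2401 TPM, 2.92-fold (2.88 to 2.97). Pseudogenes of both chains exist, so their counts are uncertain. TFRC, at 430.3 TPM (424.7 to 436), exceeded TFR2, the second transferrin receptor, 6.52-fold (6.22 to 6.84). NCOA4, which guides ferritin to breakdown, was at 183.1 TPM. The list had 3 members under 1 TPM. HMOX1, which breaks heme down, had 0 counts. HFE stood at 0.70 TPM and the mitochondrial ferritin FTMT at 0.15 TPM.

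In the list of erythroid signalling and enzymes 18 of 20 members were on, against 54.7% of protein-coding genes. BLVRB, a biliverdin reductase abundant in red cells, was at 574.8 TPM, PRDX2, a peroxidase of red cells, at 569.7 TPM, the kinase gene PIM1 at 301.7 TPM and STAT5A at 277.7 TPM. EPOR, the erythropoietin receptor, was much lower at 14.4 TPM and the stem cell factor receptor KIT at 2.45 TPM. CA1, a carbonic anhydrase of fetal and adult red cells, was at 10.3 TPM. CA2, at 0.52 TPM, and ALOX15, at 0 counts, were off. Together the 5 erythroid lists held 83 genes, 76 of them on and 22 at 100 TPM or more.

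The promoters of 4 erythroid genes are shown to place these levels beside the DNA letters that GATA factors and KLF1 recognise. RefSeq promoter sequences (GRCh38.p14) were at hand for 57 of the 83 erythroid genes, and HBD was the 1 beta-like globin gene among them. The deposited values rest on another build, hg19. Each line gives the 250 bases before the annotated start, on the gene's own strand, which is the minus strand for all 4. Capitals mark 2 motifs found on either strand. The first, AGATAA, is of the type bound by GATA factors. The second is CACCC, of the type bound by KLF1. They lie at chr6:49636840-49637089 (RHAG), chr7:142962364-142962613 (KEL), chrX:55030978-55031227 (ALAS2) and chr3:196082091-196082340 (TFRC).
RHAG: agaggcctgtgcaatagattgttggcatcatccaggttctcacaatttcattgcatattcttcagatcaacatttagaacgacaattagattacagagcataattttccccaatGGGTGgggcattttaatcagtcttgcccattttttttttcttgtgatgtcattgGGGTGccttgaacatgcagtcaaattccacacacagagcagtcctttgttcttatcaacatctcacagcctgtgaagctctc
KEL: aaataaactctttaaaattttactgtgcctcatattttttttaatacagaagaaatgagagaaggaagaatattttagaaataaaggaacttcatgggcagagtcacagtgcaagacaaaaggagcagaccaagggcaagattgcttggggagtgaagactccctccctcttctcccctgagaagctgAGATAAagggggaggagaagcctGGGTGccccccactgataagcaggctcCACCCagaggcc
ALAS2: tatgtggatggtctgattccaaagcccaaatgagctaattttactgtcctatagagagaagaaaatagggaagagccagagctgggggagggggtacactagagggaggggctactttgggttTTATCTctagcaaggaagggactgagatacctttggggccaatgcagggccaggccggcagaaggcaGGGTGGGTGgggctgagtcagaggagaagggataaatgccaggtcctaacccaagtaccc
TFRC: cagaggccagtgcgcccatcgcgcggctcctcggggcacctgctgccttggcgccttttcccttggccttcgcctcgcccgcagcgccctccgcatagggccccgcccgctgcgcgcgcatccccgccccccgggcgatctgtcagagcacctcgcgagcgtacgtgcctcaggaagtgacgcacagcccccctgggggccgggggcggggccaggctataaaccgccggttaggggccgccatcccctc

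RHAG, at 652 TPM, held 2 CACCC and no AGATAA. No other spelling around GATA was searched. Stretches such as ttatca in RHAG (TGATAA on the other strand) and tgataa in KEL are therefore not marked. KEL, a blood group peptidase at 49.4 TPM, and ALAS2, at 37.3 TPM, each held 1 AGATAA and 2 CACCC; in ALAS2 the pair of CACCC matches overlapped by 1 base. TFRC held neither, and it had 29 CG dinucleotides in the window, against 1 in RHAG, 0 in KEL and 1 in ALAS2. Over 27305 RefSeq promoters of the same length, 9.37% held AGATAA and 53.7% held CACCC, so the second motif alone is common. A match describes these letters and is no evidence of binding, and the promoters were chosen after the levels were seen.

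Other blood lineages were mostly off. Over their 10 lists, 25 of 128 genes were on, or 19.5%, against 54.7% of protein-coding genes, and 76 had 0 counts. No B cell gene of 12 reached 1 TPM; CD22 came closest at 0.93 TPM, and CD79A stood at 0.28 TPM and MS4A1 at 0 counts. Of 16 granulocyte genes 1 was on, FUT4 at 8.30 TPM, an enzyme also found outside that lineage. MPO and ELANE, the main granule genes of early granulocytes, had 0 counts, PRTN3 stood at 0.62 TPM and AZU1 at 0.14 TPM. The mast cell list had ENPP3 at 12.4 TPM and 0 counts for TPSAB1, TPSB2, CPA3 and FCER1A. Among 8 eosinophil genes PRG2 was on at 2.84 TPM, among 10 dendritic cell genes CD83 at 3.37 TPM, and among 10 NK cell genes PRF1 at 2.83 TPM.

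A few genes of other lineages stood out from otherwise silent lists. In the monocyte list 5 of 16 were on: the Fc receptor gene FCGR2A at 61.4 TPM, the lysosomal CD68 at 34.2 TPM, SPI1 at 21.8 TPM, LYZ at 11.9 TPM and CYBB at 1.43 TPM. CD14, at 0.15 TPM, and CSF1R, at 0 counts, were off. In the T cell list CD3D was at 38.0 TPM on 179 counts and TCF7 at 9.13 TPM. The partners of CD3D in the T cell receptor complex were off, with CD3E at 0.37 TPM, CD3G at 0 counts and CD247 at 0.13 TPM. CD2, CD4 and CD8A had 0 counts.

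Platelet genes were sparse although K562 cells can be driven toward megakaryocytes. Of 18 members 5 were on. GP1BB led at 31.1 TPM, followed by the collagen receptor gene GP6 at 12.7 TPM and the platelet tubulin TUBB1 at 6.71 TPM. CD9 was at 2.01 TPM and ITGA2B, the defining integrin chain, at 1.17 TPM on 39 counts. ITGB3, its partner, stood at 0.56 TPM. GP1BA, GP5, GP9, PF4, PPBP and VWF had 0 counts; GP1BA and GP9 encode the partners of GP1BB in one receptor. GP1BB lies beside a neighbouring gene whose read-through transcripts include it, so its level is uncertain.

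Of 15 surface genes of stem and progenitor cells 8 were on, or 53.3%, close to the 54.7% of protein-coding genes. CD164, a sialomucin, was at 119 TPM and SPN (CD43) at 69.8 TPM. The myeloid antigen CD33 was at 22.5 TPM and CD47 at 13.2 TPM. CD34, PROM1, THY1, CD38 and FLT3 had 0 counts. PTPRC, the common leukocyte antigen, stood at 11.2 TPM and CD44 at 1.02 TPM.

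Lists of cells outside the blood were off with some exceptions. The 7 lists held 67 genes, of which 14 were on, or 20.9%, against 54.7% of protein-coding genes. No endothelial gene of 10 reached 1 TPM. Stromal genes were off but for FN1 at 9.61 TPM and COL1A2 at 1.66 TPM, with COL1A1 at 0.23 TPM, COL3A1 at 0.07 TPM and DCN at 0.10 TPM. The hepatocyte list had TF, transferrin, at 1.13 TPM on 31 counts, and the neuron list the tubulin TUBB3 at 11.7 TPM.

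Simple epithelial keratins were the clearest exception. KRT8 was at 494.1 TPM (483.5 to 504.9), KRT18 at 347.5 TPM (337.5 to 357.8) and KRT19 at 158.8 TPM, and the adhesion gene EPCAM at 122.5 TPM. KRT8 and KRT18 form a filament as partners, and their ratio was 1.42 (1.37 to 1.48). These 4 genes all exceeded 100 TPM, a level reached by 8.38% of protein-coding genes. The other 6 epithelial genes were off: CDH1, KRT14, CLDN3, CLDN4 and ESRP1 had 0 counts and KRT5 was at 0.09 TPM. Muscle genes showed a similar split, with TNNT1, a troponin of slow muscle, at 174.2 TPM and the filament gene DES at 19.5 TPM, but 0 counts for MYOD1, MYOG and CKM.

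Markers of HEK293-type packaging cells, the source of the virus, gave a mixed list. Of 10 genes 5 were on, a share close to the 54.7% of protein-coding genes. Among them were VIM at 462.5 TPM, KRT18 at 347.5 TPM, the neuropeptide gene GAL at 164.4 TPM and MSX1 at 3.90 TPM. The neurofilament genes that mark those cells were at 0.03 TPM (NEFL, 1 count) and 0 counts (NEFM), PAX2 and CDH2 had 0 counts, and LHX1 was at 0.06 TPM.

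Transcription factors were present at modest levels. Of 670 listed factors, chosen as DNA-binding regulators, 342 were on, or 51.0%, close to the 54.7% of protein-coding genes. Of these 22 reached 100 TPM, 192 lay between 10 and 100 TPM and 128 between 1 and 10 TPM, while 204 factors had 0 counts. Factors that were on had a median of 14.4 TPM, against 21 TPM for all genes that were on, and all 670 together held 1.08% of TPM.

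Within this list the highest level was that of ATF4, which directs the response to amino acid shortage, at 484.3 TPM (472.3 to 496.5). SSRP1, a subunit of a histone chaperone with a DNA-binding domain, followed at 357.7 TPM and MYC at 320.4 TPM. NFE2 and GATA1 came next at 299.6 TPM (291 to 308.3) and 287 TPM (278 to 296.3), and their ratio of 1.04 had an interval of 0.9998 to 1.09, so that these 2 are not separated by counting error. STAT5A, a target of BCR-ABL1, stood at 277.7 TPM (272.8 to 282.7), an interval that overlaps that of GATA1. It exceeded STAT5B 3.18-fold (3.07 to 3.29). Neither expected count was whole while their sum was, so the split between these similar genes is uncertain. The order depends on which genes are listed: with general factors, abundant nucleic acid binders such as HMGA1 (2355 TPM) and YBX1 (1984 TPM), and cofactors added, 9 of the first 25 stayed. MAZ was at 265.5 TPM and the ribosomal RNA gene factor GTF3A at 199.4 TPM. MYBL2, a cell cycle factor, and KLF1 were level at 164.8 and 164.7 TPM.

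Ranks 11 to 22 spanned a narrow range from PBX2 at 135.0 TPM to CEBPZ at 104.9 TPM. Within it CTCFL, a relative of CTCF known from testis, was at 131.4 TPM, E2F4 at 127.4 TPM and MYB at 126.2 TPM. GATA2 followed at 122.3 TPM, 2.35-fold below GATA1 (2.25 to 2.45), HOXB9 at 118.6 TPM and TFDP1 at 115.1 TPM. LYL1 (113.9 TPM), GTF2I (113 TPM), XBP1 (110.5 TPM) and HHEX (109.5 TPM) came after. Intervals of neighbours overlapped throughout ranks 11 to 22, so no gene there can be ordered against the next. UBP1, TCF3 and STAT5B closed the 25 at 98.1, 93.9 and 87.4 TPM, with IRF3 just outside at 84.8 TPM. With genes named ZNF and a number added, ZNF207 at 259 TPM, ZNF593 at 181.1 TPM and ZNF146 at 99.2 TPM would enter the first 25.

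The erythroid and stem cell factor list had 24 of 28 members on and 9 at 100 TPM or more. The shares of protein-coding genes at these levels were 54.7% and 8.38%. The members of the GATA1 complex were all on. Beside GATA1, the adaptor genes LDB1 and LMO2 were at 159.4 and 96.0 TPM, TAL1 at 62.7 TPM and its partner TCF3 at 93.9 TPM. LYL1, a close relative of TAL1, exceeded it 1.82-fold (1.71 to 1.93). ZFPM1, the cofactor FOG1, was lower at 7.37 TPM. The repressor GFI1B stood at 72.6 TPM and its relative GFI1 at 0.15 TPM, and KLF3 was at 29.4 TPM. Of the factors of stem and early progenitor cells, IKZF1 was at 52.5 TPM, CBFB at 51.1 TPM, MECOM, which codes for EVI1, at 15.2 TPM on 793 counts, RUNX1 at 14.7 TPM, ETV6 at 3.41 TPM and MEIS1 at 1.83 TPM. FLI1 and ERG, ETS factors of megakaryocytes and stem cells, had 0 counts.

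BCL11A, a known repressor of the gamma-globin genes, had 0 counts, and 3 counts would have given BCL11A 0.0721 TPM. ZBTB7A, another repressor of these genes, was at 16.7 TPM and SOX6, which acts with BCL11A, at 3.30 TPM. FOXO3, a factor of late red cell maturation, was at 8.08 TPM. Among the factors of other lineages SPI1 was at 21.8 TPM, 13.2-fold below GATA1 (11.6 to 14.9), while PAX5, EBF1 and IRF8 had 0 counts.

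The families differed in how many members were on, against 51.0% of all 670 listed factors. The bHLH (52.9%), ETS (55.6%), nuclear receptor (52.2%) and KLF and SP (56.0%) families lay near that share. All 11 members of a mixed group of NFY, heat shock, SRF and MEF2 factors were on. So were 10 of 11 E2F and DP factors and 6 of 7 STAT genes. The bZIP family had 38 of 51 on, bHLH 37 of 70, ETS 15 of 27, led by ERF at 60.7 TPM, and nuclear receptors 24 of 46, led by NR2F6 at 54.6 TPM. Forkhead genes were on in 16 of 40 cases, led by FOXK2 at 58.5 TPM, SOX, TCF and LEF genes in 6 of 24, led by LEF1 at 28.4 TPM, and T-box genes in 2 of 16, led by TBX1 at 15.5 TPM. In the KLF and SP family 14 of 25 were on, and KLF1 led by a wide margin over SP1 at 39.8 TPM.

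HOX genes, which give cells their position along the body and are used in blood stem cells, were on mainly in the HOXB cluster. Of the HOXB cluster 8 of 10 members were on, with HOXB9 at 118.6 TPM, HOXB2 at 54.2 TPM and HOXB4 at 49.3 TPM. None of 11 HOXA genes and none of 9 HOXD genes reached 1 TPM; 9 and 7 of them had 0 counts. The HOXC cluster had 2 of 9 on, led by HOXC9 at 8.35 TPM.

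The BCR-ABL1 list, which holds the fusion partners and the pathways below them, had 27 of 28 members on, against 54.7% of protein-coding genes. ABL1 was at 109.2 TPM and BCR at 45.2 TPM, a ratio of 2.41 (2.31 to 2.52). The expected count of BCR was not whole, so its level and the ratio are uncertain beyond that interval. Gene tables do not separate the fusion transcript from either parent. The adaptor gene CRKL, a main substrate of the kinase, was at 202 TPM, BCL2L1, a survival gene under STAT5, at 155.1 TPM and LYN at 78.5 TPM.

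A block of neighbouring genes around CDKN2A was silent. K562 cells are known for a deletion there; DNA was not measured here. MTAP, an enzyme gene of methionine salvage that most tissues express, had 0 counts, where 3 counts would have given 0.0592 TPM. CDKN2A and CDKN2B, inhibitors of CDK4 and CDK6, also had 0 counts. In RefSeq order 25 matched protein-coding genes in a row, from HACD4 to TUSC1, had none. Of them 16 are interferon genes, which resting cells seldom express, and 9 are other genes: HACD4, KLHL9, MTAP, CDKN2A, CDKN2B, DMRTA1, ELAVL2, IZUMO3 and TUSC1. On one side the nearest genes were nearly silent, with FOCAD at 0.14 TPM, MLLT3 at 0.13 TPM and SLC24A2 at 0.11 TPM, before ACER2 at 2.63 TPM and RPS6 at 4105 TPM. On the other side CAAP1 followed at 14.03 TPM and PLAA at 13.9 TPM. Long runs at 0 counts occur elsewhere too: 9 longer ones were found, the longest from OR4B1 to LRRC55 with 61 genes. The extent of the run was chosen after the levels were seen.

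The genes of the cell cycle lists were on throughout, against 54.7% of protein-coding genes. All 20 proliferation genes were on and 17 stood at 100 TPM or more, with MCM7, of the replicative helicase, at 595.2 TPM, TYMS at 462.2 TPM, PCNA at 353.7 TPM and CDK1 at 250.4 TPM. Among the D cyclins CCND3 was highest at 166.6 TPM, 5.51-fold over CCND2 (5.21 to 5.82) and 27.5-fold over CCND1 at 6.05 TPM (24.3 to 31.3). CDK4, at 244.1 TPM, exceeded CDK6 6.61-fold (6.34 to 6.89). Of the inhibitors listed with the D cyclins CDKN2C led at 61.5 TPM, followed by CDKN1B at 26.1 TPM and CDKN1C at 11.1 TPM. CDKN1A was lowest of that list at 4.80 TPM. The inhibitor genes CDKN2A and CDKN2B, at 0 counts, were listed apart, with their chromosomal neighbours.

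Of 13 genes of MHC class I presentation 7 were on, a share close to the 54.7% of protein-coding genes. The heavy chain genes named here other than HLA-E stood near 1 TPM or below, with HLA-F and HLA-G at 0 counts, HLA-B at 0.14 TPM and HLA-C at 1.04 TPM on 15 counts, while HLA-E, a ligand of NK cell receptors, was at 27.8 TPM. Their common light chain B2M was at 889 TPM, 32.0-fold over HLA-E (29.6 to 34.6). HLA genes vary between people and resemble each other, so these levels are uncertain. The peptide transporter genes TAP2 and TAP1 were at 30.6 and 2.33 TPM, and NLRC5, the activator of class I genes, had 0 counts. No MHC class II gene of 10 was on, and CIITA, their activator, and CD74 had 0 counts.

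Cancer-testis antigens, normally silent outside the germ line, were on in 16 of 20 cases and 6 reached 100 TPM. The shares of protein-coding genes at these levels were 54.7% and 8.38%. PAGE2 was on at 1.17 TPM with only 3 counts, and 15 members had at least 10 counts. PRAME was at 1640.03 TPM (1623 to 1657), more than any of the 670 listed factors. PAGE5 was at 326 TPM, MAGEA3 at 209.6 TPM and MAGEA6 at 204.3 TPM; the split within the MAGEA pair is uncertain by the same sign, and its sum was 413.9 TPM. MAGEA4 (0.38 TPM), MAGEA10 (0.04 TPM), SSX2 (0.02 TPM) and CTAG1B (0 counts) were off. Of 16 imprinted genes, which are read from 1 parental copy, 7 were on, or 43.8%, close to the 42.4% of all genes in the table. GNAS was at 469.4 TPM, PHLDA2 at 46.3 TPM, H19 at 35.5 TPM and DLK1 at 30.02 TPM. IGF2, MEG3, PEG3 and SGCE had 0 counts, so that H19 was on where its neighbour IGF2 was not.

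Housekeeping lists were on without exception, in 70 of 70 cases, with 60 at 100 TPM or more. The shares of protein-coding genes at these levels were 54.7% and 8.38%. The ratio between members of a family ranged widely over the 4 pairs compared. EEF1A1 exceeded EEF1A2, the form of nerve and muscle, 362-fold (329 to 399). ENO1 exceeded ENO2, the neuronal enolase, 388-fold (330 to 460.1). HK1 exceeded HK2 17.0-fold (16.4 to 17.7). LDHB, at 1642 TPM, exceeded LDHA 1.41-fold (1.38 to 1.43). All 18 chaperone genes exceeded 100 TPM, with HSP90AB1 at 4342 TPM, HSPA8 at 3813 TPM and HSP90AA1 at 2133 TPM. The stress-inducible HSPA1A and HSPA1B, whose expected counts were whole only in sum, came to 1240 TPM together. TUBA1B, at 3880 TPM, TUBB, at 2352 TPM, ACTB, at 2043 TPM, and TUBA1C, at 1541 TPM, led the cytoskeleton list. TUBA1A was lowest at 10.1 TPM. The expected counts of TUBA1A, TUBA1B and TUBA1C were whole only in sum, so the split among them is uncertain. Together they came to 5431 TPM.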

How the data were processed

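RNA of K562 cells with empty vector was sequenced in 1 library, prepared with the TruSeq RNA kit, per the labels' protocols. The authors deposited a gene table with the expected count, TPM and FPKM of 26334 genes, per the file headers; the genome build was hg19 and bcl2fastq was used, per the submitters' processing notes. How reads were aligned and counted, by which annotation and whether by strand, was not given in the sources used here, so overlapping, antisense and near-identical genes are uncertain. The deposited TPM was used as it stands and differed from TPM recomputed from the expected count and effective length by at most 0.0490% for genes at 10 TPM or more. The deposited FPKM is a constant multiple of it and was used only for that check. Of the expected counts, 3.09% lay more than 0.001 from a whole number.

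Counts were rounded to whole numbers for exact 95% Poisson intervals, put on the TPM scale. They were also used for exact intervals of a ratio of 2 genes (Clopper-Pearson, conditional on the summed counts). Both used scipy 1.17.1 under Python 3.11.15. The Poisson intervals were tested only on simulated counts that were themselves drawn from a Poisson distribution. That test cannot show whether the intervals hold for these reads. The ratio intervals were not tested. No molecular identifiers were counted, so reads may be copies of one molecule, and both the intervals and the limit of 3 counts for a gene at 0 describe counting error alone. Of a sum, the interval is that of the summed count. Sensitivity was tried to the threshold, the count minimum, the length term and the scaling.

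The lists and factors were chosen with earlier results of these data known. Named are the 20 most abundant genes, the 25 highest factors, the leading factor of each family, all globins and erythroid factors, and of each list up to 4 of the highest members and up to 4 under 1 TPM in list order. Other list members, partners in a ratio or sum, the genes around CDKN2A, ZNF207, ZNF593, ZNF146, HMGA1, YBX1 and the leading gene of a class are named outside that rule, chosen after their values were seen. Listed symbols were matched through older names where needed, and KAISO found no match. The order of neighbouring genes and the promoters come from RefSeq (GRCh38.p14), and no coordinate of the files' own build is printed. Some members of the lists count in the totals but are not reported here by name.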

Additional observations from a re-analysis of the deposited data

How the results depend on the processing

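No paired analysis was possible because the series has 1 library per construct. Thresholds of 0.5 and 2 TPM, or 1 TPM with at least 10 counts, put the number of genes on between 10413 and 11840 and the number of factors on between 322 and 366. Of 108 alternative counts for the 36 lists, 100 stayed within 1.5 times the count given. At 0.5 TPM the count moved to 2 for granulocyte, 2 for dendritic cell, 1 for B cell, 3 for NK cell, 1 for endothelial and 2 for hepatocyte genes, and at 2 TPM to 1 for stromal and 0 for hepatocyte genes. Ranking by expected count, with no length term, kept 8 of the 20 most abundant genes, and with annotated length, chosen after seeing the data, 15 stayed. With general factors, abundant nucleic acid binders and cofactors added, 9 of the 25 highest factors stayed among the first 25. By expected counts the 10, 20 and 100 most abundant genes held 5.49%, 8.18% and 18.7% of the library. With annotated length the levels of named genes above 0 moved by a factor of 0.336 to 1.38, without the 10 most abundant genes by a median of 1.12, and without genes of effective length under 200 bases by a median of 1.04. Limits: with 1 library, differences between cultures are not measured, levels within the intervals of each other are not ordered, and a gene at 0 counts may be expressed below its floor.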

Other observations

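Broad classes of genes differed in how many members were on. Of 476 genes named ZNF and a number, most of them zinc finger factors, 341 were on, but with a median of 4.26 TPM over all 476; ZNF207 led at 259 TPM. Nuclear genes of oxidative phosphorylation had 74 of 81 on, a median of 238.3 TPM and 3.16% of all TPM, led by UQCRH at 2219 TPM. Of 73 genes with HIST symbols 47 were on, led by HIST1H2BK at 1535 TPM. Most replication-dependent histone transcripts lack a poly(A) tail, and the labels do not say how the library selected RNA beyond the kit.

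Non-coding genes were sparse. Of 878 genes with LINC symbols 88 were on, 4 of them at 100 TPM or more, led by LINC00998 at 263.8 TPM, and 688 had 0 counts. Of 371 genes with snoRNA symbols 2 were on, and of 1898 with microRNA symbols 6, led by MIR4435-2HG, a host gene, at 99.2 TPM. Small RNAs are shorter than the fragments of this library, and their low counts are no measure of their abundance in the cell.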
